A study of Mus musculus with 3 samples.

Results

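The 4 genes described here, Isg15, Uba7, Ube2l6 and Usp18, encode the protein ISG15 and the enzymes that attach it to other proteins and take it off again. Their probes were found by gene symbol in the platform annotation. They are 4 of 13697 genes measured on every array, with 1 probe each. Fetal livers of E14.5 mouse embryos were profiled on 3 single-colour CodeLink arrays: wild-type, DNase II-deficient, and a double-deficient genotype that lacks IFN-IR (the type I interferon receptor) as well as DNase II. All 3 groups share the stage and the tissue, and the labels name no treatment, strain or sex and do not say how many embryos were pooled. No genotype has a replicate, so each difference below is a value without a test, and the number of arrays limits its precision.

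ISG15 is a small ubiquitin-like protein, built of a pair of ubiquitin-like domains, that is joined through its carboxyl end to lysines of target proteins. As with ubiquitin, an activating enzyme (UBA7), a conjugating enzyme (UBE2L6) and a ligase (chiefly HERC6 in the mouse) act in turn, and the protease USP18 removes ISG15. USP18 has a further role that does not need its protease activity: together with STAT2 it sits on the interferon receptor chain IFNAR2 and damps signalling. All 4 genes are known as targets of type I interferon. DNase II digests, in macrophage lysosomes, the DNA of engulfed cells and of the nuclei that erythroblasts expel in the fetal liver.

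The stretches before 3 of these genes are shown because interferon acts on such promoters. They are the 250 bases before the annotated start of each gene (RefSeq, GRCm38.p6), printed 5′ to 3′ on the strand of the gene. Isg15 is chr4:156200819-156201068 on the minus strand, Uba7 is chr9:107975317-107975566 on the plus strand and Ube2l6 is chr2:84798578-84798827 on the plus strand. Capitals mark each match, on either strand, to AANNGAAA, the element that interferon regulatory factors bind, or to GAAANNGAAA, the core of the interferon-stimulated response element, every match of which contains the shorter element.
Isg15: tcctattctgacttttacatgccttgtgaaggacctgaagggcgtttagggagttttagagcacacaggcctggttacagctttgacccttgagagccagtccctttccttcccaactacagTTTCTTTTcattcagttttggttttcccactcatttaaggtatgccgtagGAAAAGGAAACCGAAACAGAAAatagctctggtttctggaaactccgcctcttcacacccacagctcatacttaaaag
Uba7: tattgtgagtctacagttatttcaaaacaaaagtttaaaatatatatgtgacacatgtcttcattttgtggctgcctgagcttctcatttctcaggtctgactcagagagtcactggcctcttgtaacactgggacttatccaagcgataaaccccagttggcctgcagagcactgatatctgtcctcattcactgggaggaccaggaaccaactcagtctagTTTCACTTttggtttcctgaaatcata
Ube2l6: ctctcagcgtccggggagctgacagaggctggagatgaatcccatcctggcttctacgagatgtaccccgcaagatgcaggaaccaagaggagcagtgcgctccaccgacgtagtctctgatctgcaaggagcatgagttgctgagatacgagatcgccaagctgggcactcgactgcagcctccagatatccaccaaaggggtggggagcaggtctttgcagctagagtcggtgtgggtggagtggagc

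The Isg15 window held 3 overlapping matches to GAAANNGAAA, the first beginning 78 bases and the last ending 57 bases before the start. It also held 1 further AANNGAAA match on the opposite strand, 128 to 121 bases before the start. The Uba7 window held a single match, to AANNGAAA on the opposite strand, 27 to 20 bases before the start. These letters were not in the Ube2l6 window. Among 32851 windows of the same length, 2.98% held GAAANNGAAA and 21.3% held AANNGAAA. G and C made up 44.8% of the Isg15 window, 42.0% of the Uba7 window and 58.4% of the Ube2l6 window, against a median of 52.4%. A match describes the letters and is not a measured site.

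**Figure D1:**
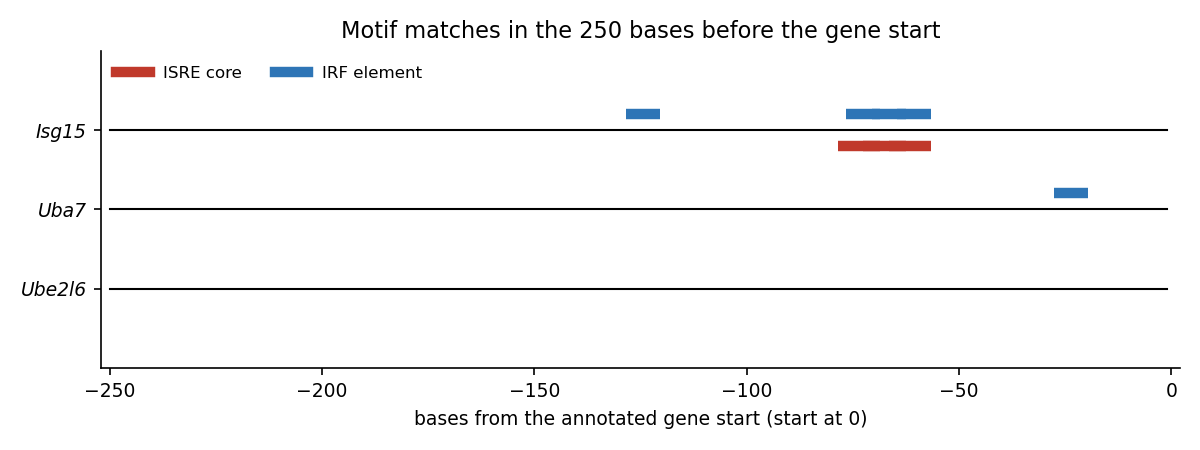
Positions of motif matches in the 250 bases before the annotated starts of Isg15, Uba7 and Ube2l6, in bases from the start, with red blocks for the core of the interferon-stimulated response element and blue blocks for the interferon regulatory factor element. The 3 overlapping core matches of Isg15 lie between 78 and 57 bases before the start, Uba7 has 1 blue block and Ube2l6 has none.

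Some facts of the arrays bear on all values. The deposited values are normalised intensities on a linear scale, with array medians of 0.958 to 0.964. For differences, values under the 25th percentile of their array (0.159 to 0.163) were set to it and log2 was taken. A probe was compared where it lay above the array median on at least 1 of the 2 arrays. Among 10666 probes compared between the array labelled DNase II-deficient and wild-type, the median log2 difference was -0.21. It was -0.09 after quantile normalisation, -0.08 after 75th percentile scaling and 0.02 after cyclic loess. The split of 2-fold calls moved with it, from 753 higher and 680 lower as deposited to 846 and 498, 878 and 480, and 965 and 377 under these scalings. Between the mutants the median was 0.12, with 349 higher and 471 lower calls, against 224 and 603 after loess. The Dnase2a probe read 40.4, 48.6 and 39.7 in wild-type and in the arrays labelled DNase II-deficient and double-deficient, so it shows no loss of that transcript in either mutant. Where the probe lies relative to the deleted part is not known, and a probe outside it checks nothing, so the genotypes rest on the labels. The tissue label was matched by bright hepatocyte and red cell genes: Afp read 568.5 to 885.1 and Hba-a1 481.7 to 631.7.

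Without DNase II, by the labels, 3 of the 4 genes exceeded their wild-type value by 2-fold or more: the modifier Isg15, the activating enzyme gene Uba7 and the protease gene Usp18. Ube2l6, the conjugating enzyme gene, was not: it was bright on every array and differed by 1.10-fold. Probe sequences were not used here, so the specificity of the Ube2l6 and Isg15 probes was not tested. Over all probes compared, 7.06% were higher by that much and 6.38% lower. All 4 probes passed the filter in this comparison, but Isg15 did so through the DNase II-deficient array alone, so its place among the higher probes followed in part from the filter.

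Isg15, the modifier itself, read 0.213 in wild-type and 1.08 and 0.303 in the arrays labelled DNase II-deficient and double-deficient. The middle value was the high one, yet the probe was dim throughout. It lay just over the floor in wild-type and double-deficient and just over the array median in DNase II-deficient, where 51.8% of probes were dimmer. Its log2 difference from wild-type was 2.34, a 5.06-fold higher value. The spread of the difference among the 500 probes of nearest level, as a scaled median absolute deviation, was 1.45, so the difference was 1.62 such spreads. With the floor raised to the array median the wild-type value counts as the floor itself, and the log2 difference was at least 0.17.

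Uba7, which starts the cascade by activating ISG15, read 3.94 in wild-type and 16.4 and 2.55 in the arrays labelled DNase II-deficient and double-deficient. All 3 values were above the array median, and the order was DNase II-deficient, wild-type, double-deficient. The log2 difference between DNase II-deficient and wild-type was 2.06, or 4.16-fold, which was 4.22 times the spread of 0.49 at that level. It ranked 235 from the top of the 10666 probes compared.

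Ube2l6, which takes ISG15 over from UBA7 and serves the ligase, read 39.7 in wild-type, 36.1 without DNase II and 31.7 in double-deficient, by the labels. It was brighter than 94.4% to 95.7% of probes on each array, and neighbours in the order of these values differed by less than their spread. The log2 difference between DNase II-deficient and wild-type was -0.14, within the spread of 0.38, and 56.3% of the probes compared had a lower difference. Its sign depended on the scaling: the 3 other scalings gave between -0.00 and 0.18. Relative to the median of all probes the value as deposited was 0.07.

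Usp18, the protease that removes ISG15, read 1.98 in wild-type and 55.3 and 2.09 in the arrays labelled DNase II-deficient and double-deficient. The DNase II-deficient array stood far above the other two, which were nearly equal. The share of probes dimmer than Usp18 was 61.2% in wild-type, 97.3% in DNase II-deficient and 62.3% in double-deficient. The log2 difference between DNase II-deficient and wild-type was 4.81, or 28.0-fold, and 11.1 times the spread of 0.43. It ranked 24 from the top of all probes compared and had the highest difference of the 4 genes.

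**Figure D2:**
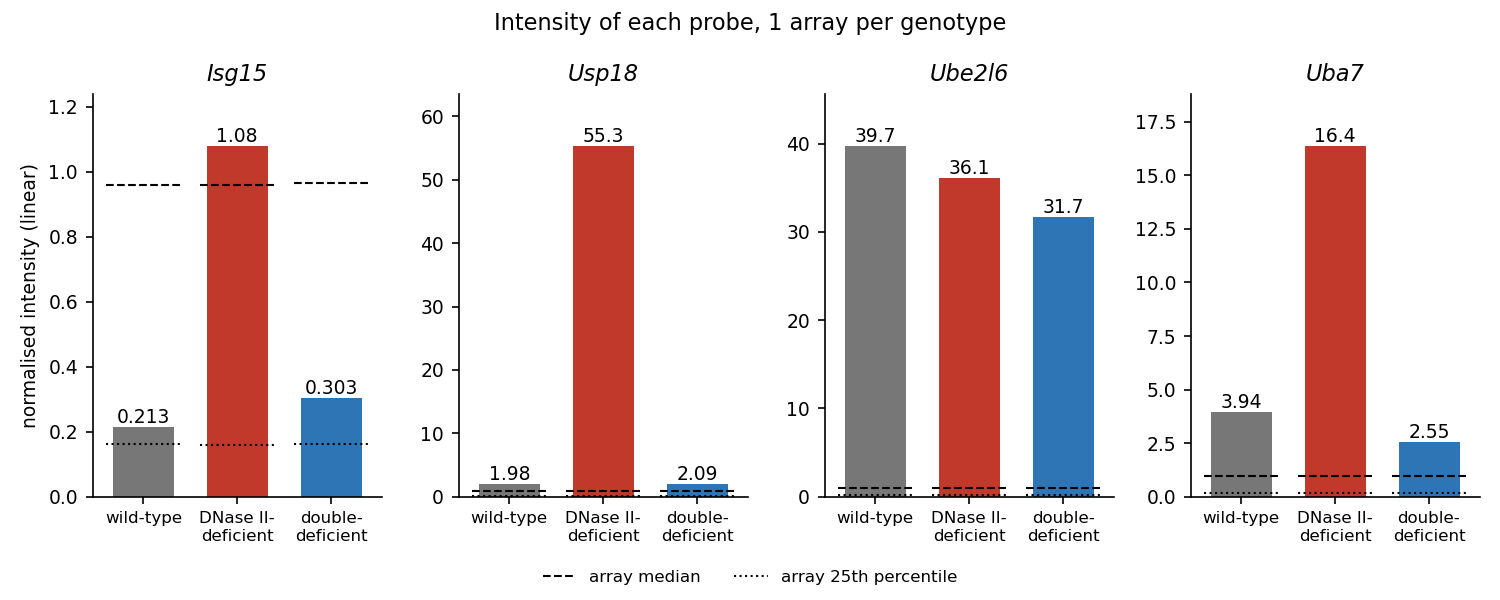
Normalised intensity (linear axis from 0, a separate scale for each gene) of the single probe of each gene in each genotype, 1 bar per array, with the array median dashed and the 25th percentile dotted. Usp18 at 55.3, Uba7 at 16.4 and Isg15 at 1.08 are highest on the DNase II-deficient array, while Ube2l6 stays between 31.7 and 39.7.

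Differences between these 4 genes cannot be given an error without replicates. Measured in the spreads above, the gap between Usp18 (4.81) and Uba7 (2.06) or Ube2l6 is wide. That to Isg15 (2.34) is less so, as the spread of Isg15 is 1.45. Isg15 and Uba7 differ by less than the spread of either. Some marker genes of fetal liver cell types also differed between the same arrays. The summed intensity of 7 erythroid marker probes was 910 in wild-type, 605 in DNase II-deficient and 796 in double-deficient. For 7 macrophage marker probes, which include Marco, Cd5l and Clec4f of resident macrophages, it was 91.9, 46.2 and 36.5. Marco (41.1 in wild-type) and Cd5l (30.6) made up most of the wild-type sum, while Vcam1 read 12.4, 15.1 and 10.5 and Mertk 1.99, 1.93 and 2.01. The erythroid sum was mostly Hba-a1. Of the 7 erythroid probes, 5 were at least 2-fold lower in DNase II-deficient than in wild-type: Klf1, Gata1, Epb42, Sptb and Slc4a1. Over all probes compared, 6.38% were. The erythroid median log2 difference was -1.27, and -1.14 to -0.97 under the other scalings. Between double-deficient and wild-type all 7 were within 2-fold. Tfrc went the other way, at 18.6, 33.5 and 17.7. Among the macrophage markers Adgre1 was dim on every array, at 0.269 to 0.282, while the Fc receptor gene Fcgr1 was higher in DNase II-deficient (4.22 and 21.3). The sum over 8 hepatocyte marker probes was 3172, 3247 and 2886. No marker was at the floor in wild-type or DNase II-deficient, and 1 macrophage marker, Clec4f, was at it in double-deficient. The part of these cells in the results was not tested. In bulk tissue, fewer cells of a type and less RNA per cell cannot be told apart.

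Setting the mutants against each other asks how the missing interferon receptor matters where DNase II is also missing. It shares the DNase II-deficient array with the comparison above, so a value that is high there shows in both. In double-deficient, 3 of the 4 genes were lower by 2-fold or more and none higher, against 4.47% lower and 3.31% higher of all 10548 probes compared. Isg15 passed the filter here too only through the DNase II-deficient array. The 3 were again Usp18, Uba7 and Isg15, and Ube2l6 was again within 2-fold. Usp18 had a log2 difference of -4.73, a 26.5-fold lower value, which ranked 17 from the bottom of all probes. Uba7 had a log2 difference of -2.68, a 6.41-fold lower value that ranked 75 from the bottom. Isg15 had a log2 difference of -1.83, a 3.56-fold lower value, against a spread of 0.84. With the floor at the array median that of Isg15 was -0.16, as a bound. Ube2l6 had a log2 difference of -0.19 against a spread of 0.39, and lay between -0.39 and -0.27 under the other scalings.

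**Figure D3:**
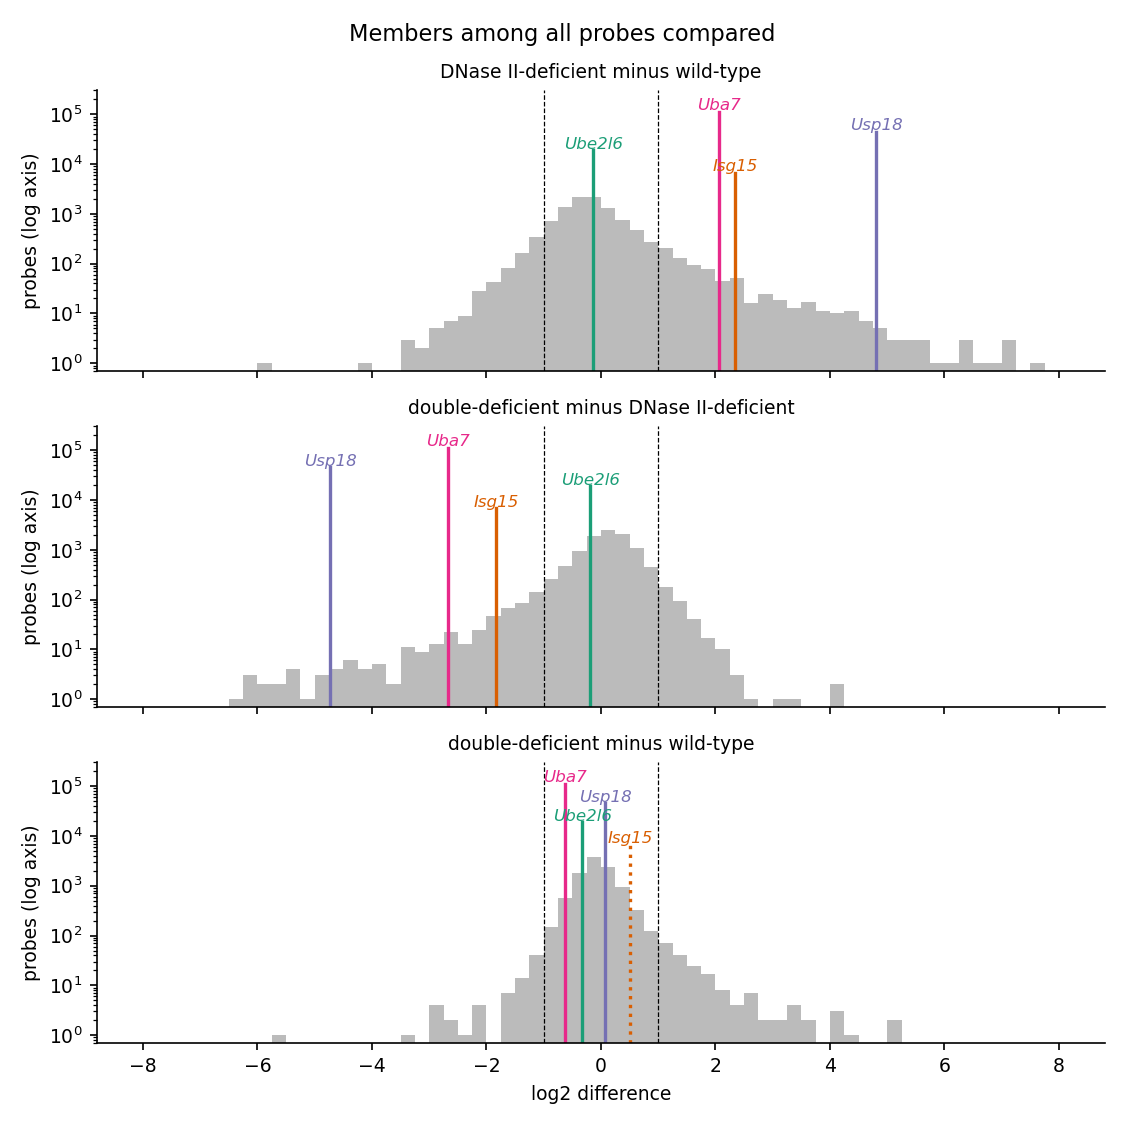
Number of probes (log axis) in bins of log2 difference for each comparison, with the 4 genes as coloured lines, dotted where the probe did not pass the level filter, and 2-fold marked by dashed lines. Usp18, Uba7 and Isg15 lie in the upper tail of the first panel (4.81, 2.06 and 2.34) and in the lower tail of the second, and all 4 genes lie within 2-fold in the third.

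Setting double-deficient against wild-type asks what remained without the receptor. None of the 3 genes compared differed by 2-fold. As few as 1.8% of the 10403 probes compared were higher by 2-fold or more and 0.721% lower, so that count is near the background. Usp18 was the closest to wild-type, at a log2 difference of 0.08 with a spread of 0.28. Ube2l6 was at -0.33 with a spread of 0.24. Uba7 was below wild-type, at 3.94 and 2.55, with a log2 difference of -0.63 that was 2.05 times the spread of 0.30. Only 4.10% of probes compared had a lower difference than Uba7. Isg15 was above, at 0.213 and 0.303, but lay under the array median on both arrays and was not compared. Its log2 difference of 0.51 was within the spread of 0.61. Under the other scalings Ube2l6 lay between -0.27 and -0.21, partly within its spread, and Uba7 between -0.58 and -0.54.

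The ligases and their cofactors were split. Herc6, the main ISG15 ligase gene of the mouse, read 0.707 in wild-type, 7.08 in DNase II-deficient and 0.789 in double-deficient, so that only the middle array was above the array median. It was 10.01-fold higher in the first comparison and 8.98-fold lower in the second. Trim25, a ubiquitin ligase of the RIG-I pathway that has also been described as an ISG15 ligase, read 1.17, 2.70 and 0.888, with log2 differences of 1.20 and -1.60. The remaining probes were within 2-fold in all comparisons. Arih1, whose product was described as an ISG15 ligase for the cap-binding protein of Eif4e2, read 1.43, 1.56 and 1.17 on 1 probe and was below the floor on the other. Both Eif4e2 probes were lower in DNase II-deficient, with log2 differences of -0.52 and -0.47. The relative Herc4 was at -0.10 on the probe that was compared, and at 0.02 to 0.11 under the other scalings. In all, 6 of 9 probes were compared, 2 were 2-fold higher and none lower, against 7.06% and 6.38% of all probes. These counts are for the first comparison, where Herc6 was compared only through the DNase II-deficient array. The median log2 difference there was 0.02, against -0.21 for all probes. In the second comparison 2 of 6 probes were at least 2-fold lower, against 4.47% of all probes. These were Herc6 and Trim25, and both passed the filter only through the DNase II-deficient array.

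Genes that act with USP18 or bind ISG15 came next. Stat2, the adaptor that brings USP18 to the receptor, read 0.877, 4.99 and 0.873, and was 5.69-fold higher in DNase II-deficient and 5.71-fold lower in double-deficient. Irf9, which binds DNA together with STAT2 in interferon signalling, read 2.09, 9.58 and 1.42. Its log2 differences were 2.20, -2.76 and -0.56 in the 3 comparisons, near those of Uba7. The receptor chain Ifnar2, to which USP18 binds, read 0.574, 0.485 and 0.483 and was not compared. Ifnar1, the other chain, read 3.60, 4.66 and 3.17. By its label the double-deficient group lacks the receptor, but the label does not say which chain. Where the Ifnar1 probe lies relative to a deleted part is not known, so its value does not check the genotype. Of the kinases, Jak1 read 132.8, 87.3 and 161.1 and Tyk2 read 4.30, 6.28 and 5.59, within 2-fold in each comparison. The integrin LFA-1 is a cell surface receptor for free ISG15. Its chain Itgb2 was 2.60-fold higher in DNase II-deficient (2.50 and 6.51), and its chain Itgal was 2.05-fold higher in double-deficient than in wild-type (0.992 and 2.03). In the first comparison 3 of 7 probes were past 2-fold, all upward, against 7.06% higher over all probes, and the median was 0.64. Of these, Stat2 was compared only through the DNase II-deficient array. In the second comparison 2 of 7 were past 2-fold, both downward, against 4.47% lower over all probes. The median was -0.55, against 0.12 for all probes. Stat2 passed the filter here too only through the DNase II-deficient array.

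Most of the wider conjugation system was within 2-fold. So were 86.6%, 92.2% and 97.5% of all probes in the 3 comparisons. The counts below for activating enzymes, conjugating enzymes and ubiquitin-specific proteases are therefore near the background. In the first comparison 7.06% of all probes were higher and 6.38% lower. For other activating enzymes, all 7 probes compared were within 2-fold in every comparison, with a median of -0.17 in the first (-0.04 to 0.08 under the other scalings). Among them Uba6, which encodes an activating enzyme for both ubiquitin and FAT10, read 7.87, 6.99 and 9.11 on its brighter probe. Of 26 probes for other conjugating enzymes, none was at least 2-fold higher in DNase II-deficient and 3 were lower: Ube2e2 by 2.77-fold, Ube2g1 by 2.57-fold and Ube2e3 by 2.23-fold. After quantile normalisation or cyclic loess the count was 2. The median was -0.31, and -0.18 to -0.10 under the other scalings, against the all-probe median of -0.21 as deposited. Ube2l3, the closest relative of Ube2l6, read 21.7, 12.8 and 19.6, and its log2 difference of -0.76 can be set beside the -0.14 of Ube2l6. Of 22 probes for other ubiquitin-specific proteases, none was at least 2-fold higher and only Usp15 was lower (9.16 and 3.50), with a list median of -0.39, and -0.28 to -0.16 under the other scalings. Usp18 was thus the only probe compared among the ubiquitin-specific proteases examined, itself included, that was 2-fold higher.

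In the second comparison Ube2e2 was 2.29-fold higher in double-deficient, the other 24 probes for conjugating enzymes were within 2-fold, and so were all 22 probes for other proteases. Other ubiquitin-like modifiers, of which 12 probes were compared, were within 2-fold in DNase II-deficient apart from Oasl1 and Oasl2, though the other scalings counted 3 probes at least 2-fold higher in place of 2. Oasl1 and Oasl2 encode proteins with ubiquitin-like domains that are not conjugated, and were 98.2-fold and 78.3-fold higher. Both were under the array median in wild-type, so they were compared only through the DNase II-deficient array. Over all probes, 7.06% were at least 2-fold higher. In the second comparison Oasl2 was 44.1-fold lower, Oasl1 16.8-fold lower and the autophagy modifier gene Atg12 2.02-fold lower. There 4.47% of all probes were at least 2-fold lower. Ubd, which encodes the modifier FAT10, known to respond to inflammatory cytokines, was not lower in double-deficient than in DNase II-deficient, unlike Isg15. It read 0.006, 0.660 and 1.03. Between the mutants Ubd had a log2 difference of 0.64, within the spread of 0.84. It was at least 4.07-fold higher in DNase II-deficient than in wild-type, a comparison in which it did not pass the filter. Ubd was at least 6.33-fold higher in double-deficient than in wild-type, passing only through the double-deficient array, just over its median. Oasl1 was 5.83-fold higher in that comparison, at 0.407 and 2.38, and also passed only through the double-deficient array. Of the 13 probes for other modifiers compared there, 2 were at least 2-fold higher, against 1.8% of all probes.

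The Ifit genes, antiviral RNA-binding effectors, are set beside the 4 genes as well-known interferon targets. All 3 were under the array median in wild-type and were compared with it only through the DNase II-deficient array, where they were high. Ifit1 read 0.365, 45.7 and 1.84, Ifit2 read 0.176, 2.26 and 0.226, and Ifit3 read 0.573, 20.3 and 0.408. Their log2 differences in the first comparison were 6.97, 3.68 and 5.15. That of Usp18 (4.81) lies within this range, and those of Isg15 (2.34), Uba7 (2.06) and Ube2l6 (-0.14) lie below it. Between double-deficient and wild-type only Ifit1 was compared, and it was 5.04-fold higher. Ifit2 and Ifit3, under the array median on both arrays, had log2 differences of 0.36 and -0.49. GAAANNGAAA was in the windows of Ifit1, Ifit3 and Stat2, and not in those of Ifit2, Herc6, Trim25, Irf9, Oasl1 or Oasl2. These letters were also in windows of other listed genes, such as the ubiquitin-specific protease gene Usp49.

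Genes of most similar pattern were sought among 8918 probes by the distance in the first and second log2 differences, over 3 arrays. The nearest to Isg15 were Fcgr1 (2.34 and -1.82), Ppp1r3g (2.37 and -1.89) and Ccn1 (2.39 and -1.91). The nearest to Usp18 were the antiviral GTPase genes Mx1 and Mx2 and the TRIM gene Trim30d. The values of Mx1, 4.73 and -4.72, are bounds, because only the DNase II-deficient array was above the floor. Trim30d stood at 4.69 and -4.53, and Mx2 at 4.53 and -4.83. The nearest to Uba7 were Irf9, Eif2ak2, the gene of the antiviral kinase PKR (2.25 and -2.64), and the potassium channel gene Kcnj8 (2.24 and -2.48). The nearest to Ube2l6 were Kctd6, Pir and Erp29, all within 2-fold. Among the 4 genes, Isg15 and Uba7 were the closest pair, 0.89 apart, and Usp18 and Ube2l6 the farthest, 6.71 apart. With 3 arrays many probes share a pattern, and these likenesses are descriptions.

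**Figure D4:**
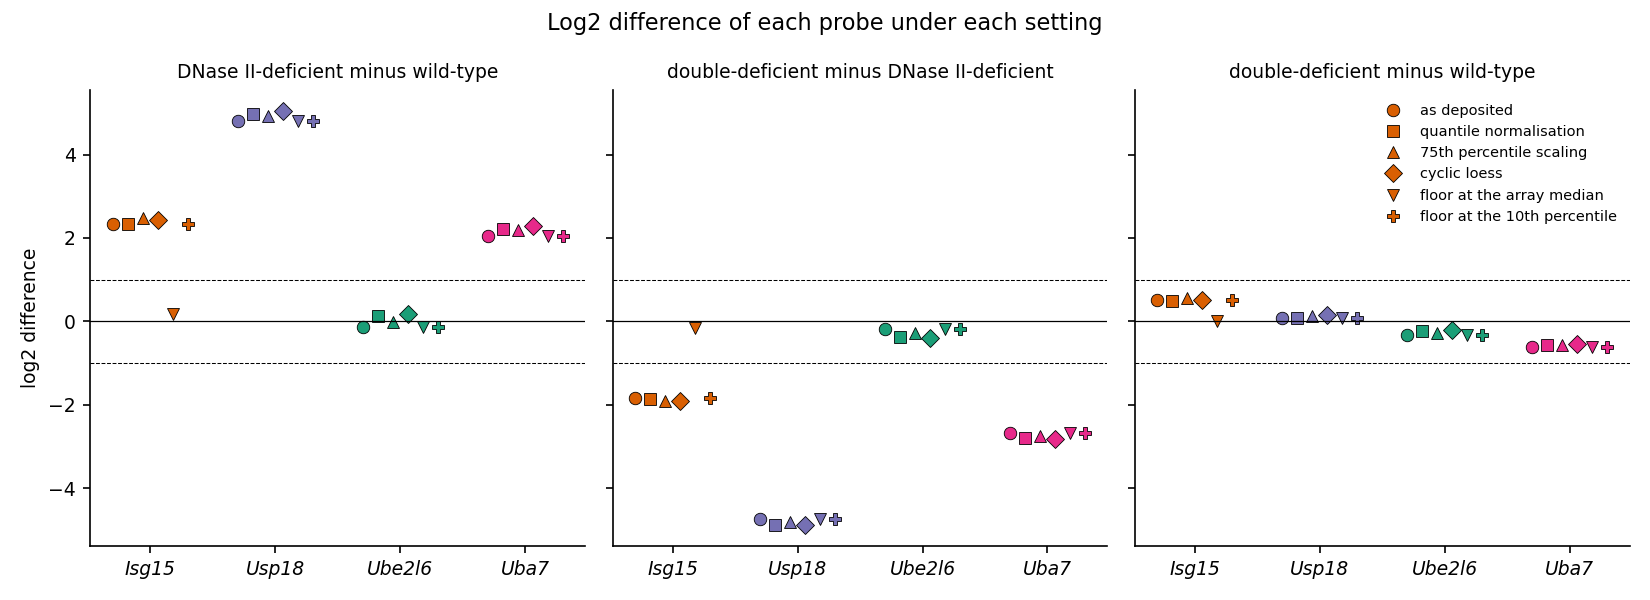
Log2 difference of each gene as deposited and under 5 other settings of scaling or floor, 1 marker per setting, in 3 panels for the 3 comparisons, with 2-fold as dashed lines. Usp18 and Uba7 keep their place under every setting shown, while Isg15 drops to 0.17 and -0.16 in the first 2 panels with the floor at the array median.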

How the data were processed

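Poly(A) RNA of fetal liver was copied to labelled RNA and hybridised to CodeLink arrays, and images were analysed with the CodeLink software, per the labels' protocols. The authors deposited normalised intensity values on a linear scale. How background and scale were treated is not stated there. The 125 probes without a value on every array were left out of 20289. Probe names came from the platform annotation, which can be old: 15120 probes had 1 symbol, 38 several and 5131 none. All 4 Entrez identifiers and accessions of the genes described matched the RefSeq gene table.

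Values were floored, log2 transformed and subtracted as the report states, in Python 3.11.15 (pandas 2.3.3), and cyclic loess used limma 3.58.1. With 1 array per genotype nothing was tested. The steps of the calls were also run on simulated arrays with planted differences. Their noise was that between double-deficient and wild-type, and only probes above the median level were planted. Dim probes such as Isg15, and the wider spread in DNase II-deficient, were therefore not covered. Every probe of the 4 genes was named. From related lists, all ligases and partners above the filter were named. So were up to 4 genes per list and comparison past 2-fold, the relatives Ube2l3 and Uba6, and the 3 nearest genes by pattern. The members and lists were chosen with earlier results of these data known. No probe with 1 symbol and a value on every array was found for Rnf135, Skp2 or Uba1, so their expression is not described. Promoter windows came from RefSeq (GRCm38.p6), for 3 of the 4 genes. Other scalings, floors, filters and the brightest probe per gene were tried.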

Additional observations from a re-analysis of the deposited data

How the results depend on the processing

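No paired analysis was possible because each genotype has 1 array, and no replicate could be left out. Over 5 settings, log2 differences from wild-type in DNase II-deficient were 4.81 to 5.04 for Usp18, 2.06 to 2.28 for Uba7 and -0.14 to 0.18 for Ube2l6. Those between the mutants were -4.88 to -4.73, -2.83 to -2.68 and -0.39 to -0.19. Isg15 depended on the floor: at the array median it was 0.17 in the first comparison and -0.16 in the second, since its wild-type and double-deficient values become the floor, and the count of genes past 2-fold was 2 in place of 3 in each. That count was also 2 in each with the level filter at the 75th percentile, which Isg15 does not pass. With the level filter at the 75th percentile, calls over all probes went from 753 higher and 680 lower to 352 and 405 in the first comparison, from 349 and 471 to 212 and 216 in the second, and from 187 and 75 to 70 and 28 in the third. Without the filter the third had 316 and 136, and with the floor at the median 47 lower. ISG15 ligases past 2-fold went from 2 to 1 with the stricter filter in both of the first comparisons. Dim probes such as Isg15, Ifnar2 and Ubd are limited by signal over background.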

Other observations

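The nearest protein-coding neighbours of these genes, taken from the GRCm38.p6 gene order after the values above were seen, mostly did not share their pattern. Perm1, beside Isg15, read 1.47, 1.35 and 1.39 in wild-type, without DNase II and in double-deficient, the order used below. Tuba8 and Slc6a13, beside Usp18, read 3.23, 2.89 and 3.33, and 1.25, 0.473 and 0.810. Traip and Inka1, beside Uba7, were lower in DNase II-deficient than in wild-type, at log2 differences of -0.72 and -0.74, and higher again in double-deficient, at 0.42 and 0.45, the opposite of Uba7. The neighbours of Ube2l6 differed from each other. Smtnl1, at 0.330, 0.346 and 0.406, was under the array median throughout. Serping1, which encodes the inhibitor of the first complement component, read 10.6, 25.5 and 14.8, with log2 differences of 1.27, -0.79 and 0.48, while Ube2l6 itself stayed at 39.7, 36.1 and 31.7.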
